A study of Mus musculus with 10 samples.

Results

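The 8 transcription factors that set and keep the identity of the hepatocyte were examined in RNA sequencing of mouse liver: Hnf4a, Cebpa, Cebpb, Foxa1, Foxa2, Foxa3, Onecut1 and Prox1. They were taken by symbol from a table of 16697 genes, all 8 were found, and all 8 passed the filter on low values that left 14017 genes for testing. The libraries came from normal liver (NL, n = 4), from liver tumours driven by c-MYC with the pT3 empty vector (c-MYC, n = 3) and from liver tumours driven by c-MYC together with FOXO1AAA (c-MYC/FOXO1AAA or FOXO1AAA tumours, n = 3). FOXO1AAA is a form of the transcription factor FOXO1 that stays active because AKT can no longer phosphorylate it. All mice were wild type by the labels. In the tumour groups, plasmids were injected under pressure into the tail vein, so that hepatocytes took them up, and a Sleeping Beauty transposase placed them in the genome, with the transgenes under the EF1α promoter. Whether NL mice were injected is not stated, mice of both sexes were used in the study, and tumour livers were taken at a high tumour burden. Ages are not given in the sources used here. The sources differ on the strain (C57BL/6 in the labels, FVB/N in the methods) and on whether MCL1 was added to the control tumours. By the methods, RNA came from injected mice for the tumour groups and from wild type livers for NL, with n as given above. How tumours were sampled within a liver is not stated.

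In the liver, these factors work as a network in which each binds to the genes of the others. FOXA proteins open closed chromatin, HNF4A and the C/EBP proteins then hold the promoters and enhancers of genes for plasma proteins, lipid transport and metabolism active, and ONECUT1 and PROX1 act earlier, when hepatoblasts are set apart from bile duct cells and grow into a liver. FOXO1 binds to a DNA core that FOXA proteins, which share its forkhead domain, also recognise. The level of a factor in a piece of tissue depends both on how many cells express it and on how much RNA each of them holds, and in bulk samples fewer hepatocytes and less RNA per hepatocyte cannot be told apart.

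Values are FPKM, that is fragments scaled to gene length and library size, so that levels can be compared between genes. The libraries held between 13123719 and 20547746 reads in genes. A gene is called higher or lower where limma treat, a 2-sided test against a change of 1.5-fold, gave a Benjamini-Hochberg adjusted p under 0.05 over all genes tested. As a check of the labels, Foxo1 averaged in NL 7.14 ± 0.532 FPKM (n = 4), in c-MYC 5.63 ± 0.721 FPKM (n = 3) and with FOXO1AAA 83.1 ± 12.8 FPKM (n = 3, errors are SD), and the gene total does not separate the transgene from the mouse gene. The 12 adult hepatocyte markers summed to between 88100 and 98900 FPKM in NL, 4080 and 5910 FPKM in c-MYC and 961 and 1670 FPKM in c-MYC/FOXO1AAA, and none of the 12 was at 3 reads or fewer in a whole group. The 8 markers of stellate cells and fibroblasts summed to between 85.7 and 109 FPKM in NL, 14.4 and 44 FPKM in c-MYC and 388 and 463 FPKM in c-MYC/FOXO1AAA. Their part in the results was not tested.

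The 250 bases before the transcription start were read from RefSeq (GRCm38.p6) for the 4 factors that were lower in FOXO1AAA tumours than in c-MYC tumours, because they moved together there, and for Foxa1, the only factor whose window holds the core bound by forkhead proteins. Hnf4a has 2 start sites in RefSeq, and the downstream of these is shown, which adult hepatocytes are known to use. Capitals mark a match to any of the 4 motifs searched on both strands, which were the forkhead core TGTTTAC, the MYC E-box CACGTG, the HNF4 motif CAAAGTCCA and the C/EBP motif TTGCNNAA, none of which overlap in these windows.
Hnf4a: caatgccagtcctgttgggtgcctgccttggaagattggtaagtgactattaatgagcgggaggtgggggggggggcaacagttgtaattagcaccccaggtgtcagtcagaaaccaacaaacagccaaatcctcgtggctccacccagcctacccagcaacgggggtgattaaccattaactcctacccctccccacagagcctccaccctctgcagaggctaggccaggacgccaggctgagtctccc
Cebpa: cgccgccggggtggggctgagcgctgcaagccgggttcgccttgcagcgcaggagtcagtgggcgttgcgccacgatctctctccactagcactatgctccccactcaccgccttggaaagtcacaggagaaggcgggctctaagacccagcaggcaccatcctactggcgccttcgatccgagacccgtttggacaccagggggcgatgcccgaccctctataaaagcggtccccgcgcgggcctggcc
Foxa3: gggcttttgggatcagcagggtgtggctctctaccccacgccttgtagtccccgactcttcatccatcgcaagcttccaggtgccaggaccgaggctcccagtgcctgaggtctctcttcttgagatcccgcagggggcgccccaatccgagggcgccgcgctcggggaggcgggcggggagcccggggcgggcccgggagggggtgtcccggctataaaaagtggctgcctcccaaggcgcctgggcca
Onecut1: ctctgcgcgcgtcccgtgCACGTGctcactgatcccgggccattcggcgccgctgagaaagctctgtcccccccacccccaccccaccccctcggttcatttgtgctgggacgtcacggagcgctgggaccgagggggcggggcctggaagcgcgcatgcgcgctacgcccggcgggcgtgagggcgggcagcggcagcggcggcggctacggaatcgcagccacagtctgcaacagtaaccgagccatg
Foxa1: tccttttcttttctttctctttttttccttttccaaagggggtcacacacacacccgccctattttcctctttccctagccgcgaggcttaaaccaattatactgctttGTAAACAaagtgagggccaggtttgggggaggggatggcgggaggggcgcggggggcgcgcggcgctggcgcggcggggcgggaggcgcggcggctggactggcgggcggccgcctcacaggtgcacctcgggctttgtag
These windows lie at chr2:163546905-163547154 on the plus strand for Hnf4a, chr7:35119043-35119292 on the plus strand for Cebpa, chr7:19023540-19023789 on the minus strand for Foxa3, chr9:74861671-74861920 on the plus strand for Onecut1 and chr12:57546112-57546361 on the minus strand for Foxa1. The forkhead match begins 141 bases before the RefSeq start of Foxa1, and the E-box begins 232 bases before that of Onecut1. In GENCODE, Foxa1 on the minus strand extends from 57540628 to 57546916. Its window, and the forkhead match, thus lie inside the gene by that annotation and upstream of it by RefSeq only. Over all 12 windows of the 8 factors, 2 held a match. Among 32851 RefSeq windows of the same length, 3.17% held the forkhead core, 6.02% the E-box, 0.384% the HNF4 motif and 9.56% the C/EBP motif. A match in letters does not show that a protein binds there. The windows also differ in composition, with 57.6% G and C for Hnf4a, 66.4% for Cebpa, 68.8% for Foxa3, 71.6% for Onecut1 and 62% for Foxa1.

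In normal liver the factors fell into 3 tiers. Cebpa was the most abundant at 456 FPKM ± 42.5 (SD, n = 4), followed by Cebpb at 263 FPKM ± 58 (SD, n = 4) and Hnf4a at 183 FPKM ± 14.3 (SD, n = 4), and the ranges of these 3 did not overlap. Foxa3 at 35.9 FPKM and Foxa2 at 30.2 FPKM formed the middle tier and overlapped each other. Prox1 at 12.9 FPKM, Foxa1 at 11.3 FPKM and Onecut1 at 7.84 FPKM were the least abundant, with ranges that overlapped from each to the next. Among all genes tested, Cebpa stood at the 97.6 percentile of NL levels and Onecut1 at the 51.9 percentile. The order changed in the tumours. In c-MYC it ran Cebpa, Hnf4a, Cebpb, Foxa3, Prox1, Foxa2, Onecut1 and Foxa1, and the last 4 overlapped from each to the next. In c-MYC/FOXO1AAA it ran Cebpb, Cebpa, Prox1, Hnf4a, Foxa1, Foxa3, Foxa2 and Onecut1, with Cebpb above Cebpa and Prox1 above Hnf4a in every library.

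**Figure D1:**
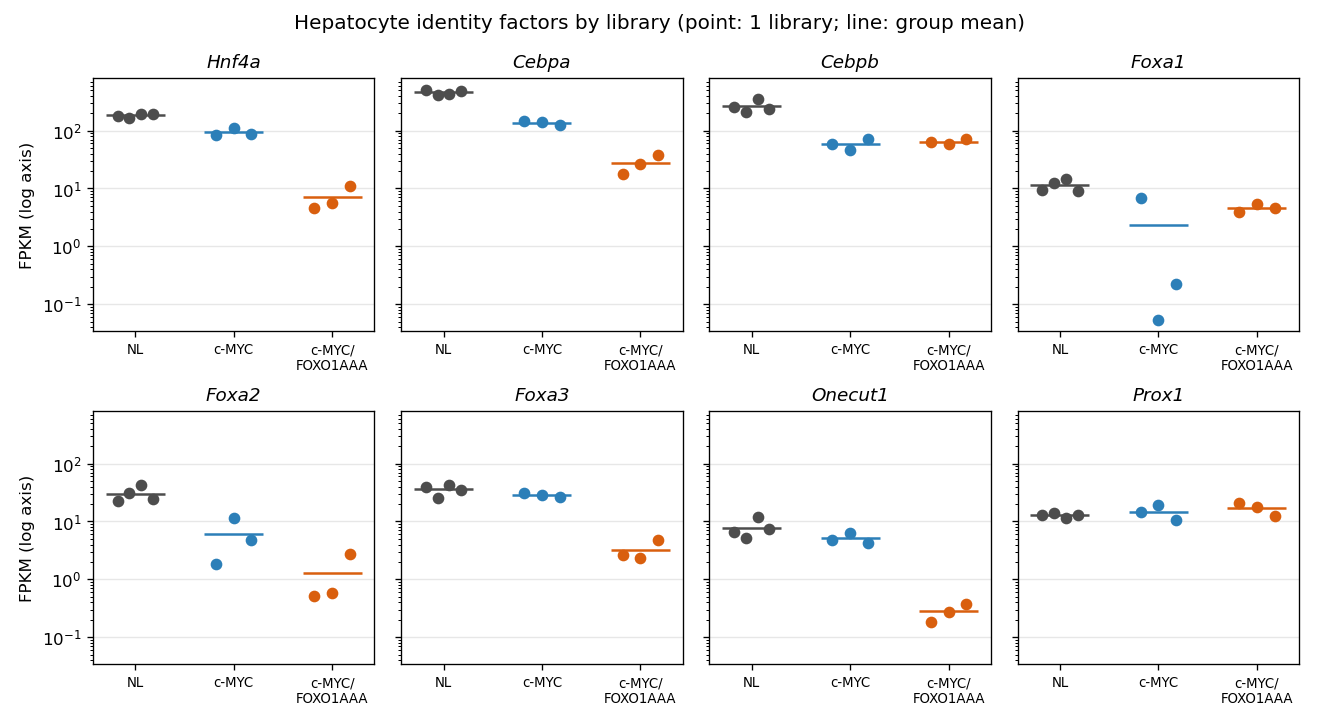
Level of each factor in every library, in FPKM on a log axis. Each point is 1 library and each line a group mean. Hnf4a, Cebpa, Foxa3 and Onecut1 were lowest in c-MYC/FOXO1AAA, Prox1 lay between 10.7 and 20.6 FPKM in all libraries, and Foxa1 in c-MYC spanned 0.0537 to 6.88 FPKM.

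The comparison of c-MYC with NL asks how the tumour driven by c-MYC differs from normal liver. Of the 8 factors, 4 were lower (Cebpa, Cebpb, Foxa1 and Foxa2) and 0 were higher. Of all genes tested, 23.6% were lower and 24.5% higher. The groups did not overlap for 5 factors, the same 4 and Hnf4a, and for 73.9% of all genes. The median log2 fold change of the 8 was -1.36, and that of all genes was 0.08. In c-MYC/FOXO1AAA against c-MYC, which asks what FOXO1AAA changes in the tumour, 4 factors were lower (Hnf4a, Cebpa, Foxa3 and Onecut1) and 0 higher, while 12.7% of all genes were lower and 15.9% higher. The groups did not overlap for these 4 and for 63.4% of all genes, and the median was -2.34 for the 8 and 0.03 for all genes. Without c-MYC 1 the called factors were 5 lower, with Foxa2 added, and 1 higher, which was Foxa1. In c-MYC/FOXO1AAA against NL, 6 were lower, all but Foxa1 and Prox1, and 0 were higher, while 26.6% of all genes were lower and 31.2% higher. With the same FPKM total, described next, 5 were lower, since Cebpb lost its call (-0.92, limma adjusted p 0.0547), and 1, Prox1, was higher. The groups did not overlap for 7 factors, all but Prox1, and for 80.1% of all genes. The median was -3.81 for the 8 and 0.21 for all genes. These contrasts share libraries and are not independent of each other.

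When all libraries were set to 1 common sum of FPKM (called the same FPKM total), the median of all genes in c-MYC against NL moved from 0.08 to 1.01, and in c-MYC/FOXO1AAA against NL from 0.21 to 1.31. Of the 14017 genes, 7061 were then higher and 1895 lower in c-MYC than in NL. Relative to the median of all genes on the scale of the study, the log2 fold change from NL to c-MYC was -1.05 for Hnf4a, -1.83 for Cebpa and -2.25 for Cebpb. It was -0.38 for Foxa3, -0.65 for Onecut1 and 0.08 for Prox1.

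Hnf4a (chromosome 2, 163506808 to 163572910, plus strand) encodes the nuclear receptor that holds much of the hepatocyte programme active. It was 181, 164, 197 and 190 FPKM in NL, 83.7, 112 and 87.3 FPKM in c-MYC, and 4.67, 5.72 and 11.1 FPKM in c-MYC/FOXO1AAA. The 3 groups did not overlap. The c-MYC mean was 51.5% of the NL mean and the c-MYC/FOXO1AAA mean 3.92%. Between the tumour groups it changed by -3.81 in log2 (SE 0.27, limma adjusted p 3.13e-06), and it was called under all 23 alternatives. Between c-MYC and NL it was -0.97 (95% interval -1.52 to -0.41, limma adjusted p 0.145) and not called. This value was called in 3 of 23 alternatives and was -0.04 when libraries were rescaled to the same FPKM total. In rank, Hnf4a stood at the 92.2 percentile of genes in c-MYC and at the 47.8 percentile in c-MYC/FOXO1AAA. The values join transcripts from both start sites.

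Cebpa (chromosome 7, 35119293 to 35121928, plus strand) encodes C/EBPα, a leucine zipper factor that drives metabolic genes and restrains hepatocyte division. Its levels were 504, 416, 426 and 479 FPKM in NL, 144, 139 and 124 FPKM in c-MYC, and 17.6, 26.9 and 37.8 FPKM in c-MYC/FOXO1AAA. It was the only factor of the 8 that was called lower in all 3 comparisons, with -1.75 in log2 (SE 0.21, limma adjusted p 0.000364) from NL to c-MYC and -2.37 (SE 0.22, limma adjusted p 5.11e-05) from c-MYC to c-MYC/FOXO1AAA. The call against NL was lost with quantile normalization (-1.01) and with the same FPKM total (-0.82). Cebpb (chromosome 2, 167688915 to 167690418, plus strand) encodes C/EBPβ, which binds the same DNA motif and is known for its role in the acute phase and in regeneration. It was 257, 210, 345 and 240 FPKM in NL, 59.6, 45.3 and 70.4 FPKM in c-MYC, and 63.7, 58.1 and 70.4 FPKM in c-MYC/FOXO1AAA. Both tumour groups lay below every NL library, and they overlapped each other. From NL to c-MYC, Cebpb changed by -2.17 in log2 (SE 0.18, limma adjusted p 1.45e-05). Between the tumours the change was 0.15 (95% interval -0.28 to 0.59, limma adjusted p 1), and without c-MYC 2 it was -0.02.

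The 2 C/EBP factors also changed places in order. The log2 ratio of Cebpb to Cebpa was -0.97, -0.99, -0.3 and -1 in NL and -1.27, -1.62 and -0.82 in c-MYC. In c-MYC/FOXO1AAA it was 1.85, 1.11 and 0.9. Cebpa exceeded Cebpb in all 7 libraries of NL and c-MYC, and Cebpb exceeded Cebpa in all 3 of c-MYC/FOXO1AAA. The mean ratio differed between the tumour groups by 2.52 on the log2 scale, with no overlap. An exact 2-sided permutation test gave p = 0.1, the smallest that 3 against 3 libraries allow (adjusted p = 0.15 over 3 comparisons). Against NL the difference was 2.1, with exact permutation p = 0.0571, the smallest for 3 against 4 libraries. Neither design can reach 0.05. Other relatives of the family moved in their own ways. Of the 3 tested, Cebpd, an acute phase factor, and Ddit3, a stress factor also called CHOP, were lower in c-MYC than in NL and higher in FOXO1AAA tumours than in c-MYC tumours, and Cebpg was not called. Ddit3 lost its call against NL with the same FPKM total (-0.27) and its call between the tumours with the same median (0.83, limma adjusted p 0.0578), and Cebpd kept both. Cebpd went from 3.85 FPKM in NL to 0.607 FPKM in c-MYC and 3.37 FPKM in c-MYC/FOXO1AAA, a step of -2.81 and then of 2.7 in log2 fold change, with adjusted p in limma of 0.00114 and 0.00403.

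**Figure D2:**
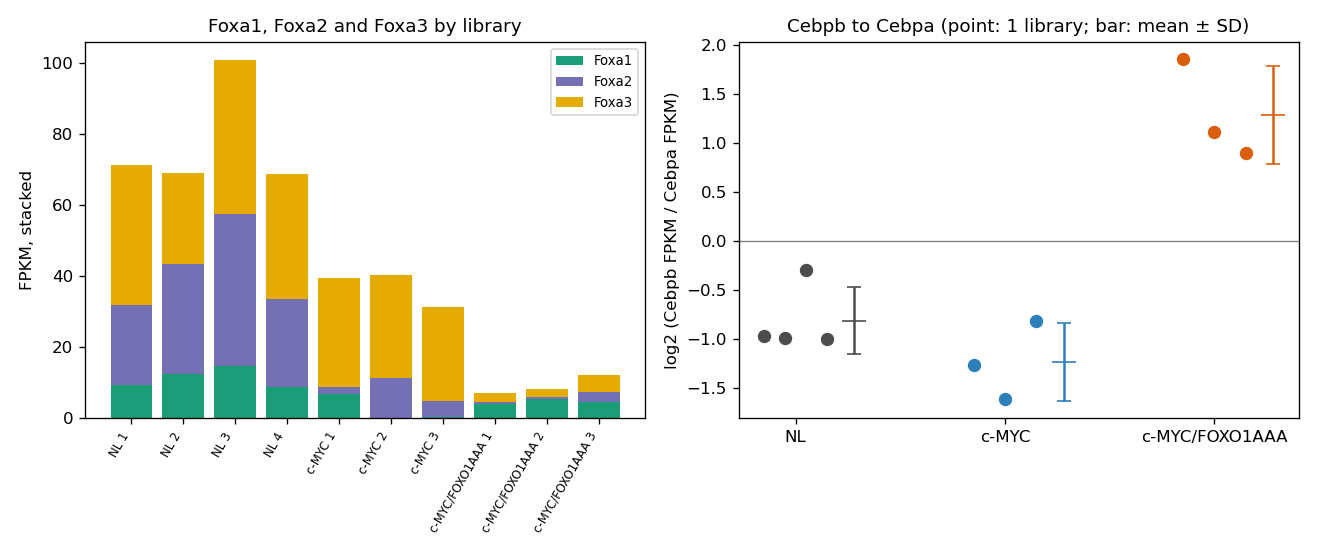
Left, FPKM of Foxa1, Foxa2 and Foxa3 stacked for each library. Right, log2 ratio of Cebpb to Cebpa for each library (points) with the group mean ± SD (bars). The summed Foxa level was 68.7 to 101 FPKM in NL and 7.12 to 12.2 FPKM in c-MYC/FOXO1AAA, and the ratio was above 0 in the 3 c-MYC/FOXO1AAA libraries only.

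The FOXA genes encode 3 related pioneer factors, which can bind DNA that is packed in nucleosomes. Foxa3 (chromosome 7, 19013284 to 19023538, minus strand), the most abundant of them in adult liver, was 39.5, 25.7, 43.2 and 35.2 FPKM in NL, 30.9, 28.9 and 26.4 FPKM in c-MYC, and 2.65, 2.33 and 4.86 FPKM in c-MYC/FOXO1AAA. NL and c-MYC overlapped, and c-MYC/FOXO1AAA lay below both. The log2 fold change was -0.3 from NL to c-MYC (95% interval -0.85 to 0.25, limma adjusted p 1), which became 0.63 with the same FPKM total, and -3.21 from c-MYC to c-MYC/FOXO1AAA (SE 0.27, limma adjusted p 1.23e-05).

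Foxa2 (chromosome 2, 148042877 to 148046969, minus strand), which also controls bile acid and glucose genes, was 22.5, 31, 42.9 and 24.6 FPKM in NL, 1.82, 11.4 and 4.71 FPKM in c-MYC, and 0.508, 0.575 and 2.72 FPKM in c-MYC/FOXO1AAA. All tumour libraries lay below NL, and the tumour groups overlapped. From NL to c-MYC it changed by -2.67 in log2 (SE 0.67, limma adjusted p 0.014), and it was not called without c-MYC 1 (-2, limma adjusted p 0.0665) or with the same FPKM total (-1.74, limma adjusted p 0.095). Between the tumours it was -2.31 (95% interval -3.91 to -0.71, limma adjusted p 0.0657), which missed the threshold. It was called in 5 of 23 alternatives, among them without c-MYC 1 (-2.98, limma adjusted p 0.0171) and without c-MYC/FOXO1AAA 3 (-3.09, limma adjusted p 0.00752). Without c-MYC 2 it was -1.66 (limma adjusted p 0.239), without c-MYC/FOXO1AAA 1 it was -1.88 (limma adjusted p 0.226), and with a pseudocount of 1 it was -1.5, none of them called.

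Foxa1 (chromosome 12, 57540628 to 57546916, minus strand) differed most among the c-MYC tumours, where the highest library was 128 times the lowest, while in c-MYC/FOXO1AAA this ratio was 1.37 and that of Foxa2, at 5.35, was the highest of the 8. It was 9.34, 12.4, 14.7 and 8.94 FPKM in NL and 3.97, 5.45 and 4.61 FPKM in c-MYC/FOXO1AAA. In c-MYC it was 6.88 FPKM in c-MYC 1, from 401 reads, but 0.0537 FPKM in c-MYC 2 and 0.225 FPKM in c-MYC 3. The latter values rest on 1 read (exact Poisson 95% interval 0.0253 to 5.57 reads) and 11 reads (5.49 to 19.7 reads), intervals that cover counting error only. The ratio of 128 thus depends on the prior count that the deposited values include. The c-MYC mean of 2.39 FPKM therefore came mostly from c-MYC 1, since the other libraries averaged 0.139 FPKM. The fitted log2 fold change from NL to c-MYC was -4.67 (SE 1.24, limma adjusted p 0.0117), and its size depended on the handling of low values, at -2.48 with a pseudocount of 1. Without c-MYC 1 it was -6.66. From c-MYC to c-MYC/FOXO1AAA it was 3.41 (95% interval 0.46 to 6.36, limma adjusted p 0.111) and not called, while without c-MYC 1 it was 5.4 (limma adjusted p 4.92e-05) and without c-MYC 2 it was 1.9 (limma adjusted p 0.398). With a pseudocount of 1 it was 1.38. Against NL, Foxa1 in c-MYC/FOXO1AAA changed by -1.26 (95% interval -4.02 to 1.5, limma adjusted p 0.535) and was not called. Its mean was 41.2% of the NL mean, and these groups did not overlap, which held for 80.1% of all genes tested. The test uses a spread shared by all 3 groups, which includes the split within c-MYC. It gave a call in 1 of 23 alternatives (limma adjusted p 0.00929). In c-MYC 1, where Foxa1 was high, Foxa2 was the lowest of the group, and in c-MYC 2, where Foxa1 was near 0, Foxa2 was the highest.

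The summed level of the 3 Foxa genes averaged 77.5 ± 15.6 FPKM for NL (n = 4), 37.1 ± 5.01 FPKM for c-MYC (n = 3) and 9.22 ± 2.64 FPKM for FOXO1AAA tumours (n = 3), with SD as the error here and in the shares. Its make-up also differed. Foxa3 made up 46.7% ± 8.17 of the sum for NL, 78% ± 6.3 for c-MYC and 35% ± 6.32 for FOXO1AAA tumours. In the same order Foxa1 made up 14.7% ± 2.32, 6.07% ± 9.79 and 52.9% ± 13.9, and Foxa2 made up 38.7% ± 6.1, 15.9% ± 11.8 and 12.1% ± 8.83. Between the tumour groups, the shares of Foxa1 and Foxa3 did not overlap and that of Foxa2 did. Exact 2-sided permutation tests gave p = 0.1 for Foxa1 and for Foxa3, the smallest this design allows, and p = 0.7 for Foxa2 (adjusted p = 0.147, 0.147 and 0.7 over 9 comparisons). The Foxa1 share in c-MYC was 17.4%, 0.133% and 0.717%, so that it was high in c-MYC 1 only.

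Onecut1 (chromosome 9, 74861921 to 74891781, plus strand) encodes HNF6, which acts in the split of hepatocytes and bile duct cells. It was 6.64, 5.23, 12.1 and 7.41 FPKM in NL, 4.79, 6.2 and 4.32 FPKM in c-MYC, and 0.184, 0.275 and 0.378 FPKM in c-MYC/FOXO1AAA. NL and c-MYC overlapped, and the c-MYC/FOXO1AAA libraries, with 15, 29 and 27 reads, lay far below both. The log2 fold change between the tumours was -4.24 (SE 0.34, limma adjusted p 6.23e-06). Its size depended on the handling of low values, at -2.25 with a pseudocount of 1, where Hnf4a was at -3.61, Foxa3 at -2.84 and Cebpa at -2.33. From NL to c-MYC it was -0.57 (95% interval -1.27 to 0.14, limma adjusted p 0.766), and it became 0.36 with the same FPKM total.

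Prox1 (chromosome 1, 190118035 to 190170714, minus strand) encodes a homeobox factor that hepatoblasts need to spread into the liver bud and that lymphatic endothelium also expresses. It was 13, 14.1, 11.6 and 12.8 FPKM in NL, 14.4, 19.3 and 10.7 FPKM in c-MYC, and 20.6, 17.8 and 12.5 FPKM in c-MYC/FOXO1AAA. All 3 groups overlapped. The log2 fold change was 0.16 from NL to c-MYC (95% interval -0.3 to 0.62) and 0.21 from c-MYC to c-MYC/FOXO1AAA (95% interval -0.28 to 0.7), each with a limma adjusted p of 1. Against NL it was 0.37 in c-MYC/FOXO1AAA (95% interval -0.09 to 0.83, limma adjusted p 1). With the same FPKM total, Prox1 was called higher than NL in c-MYC (1.09) and in c-MYC/FOXO1AAA (1.47). Markers of lymphatic endothelium summed to between 9.09 and 10.8 FPKM in NL, 0.655 and 1.89 FPKM in c-MYC and 6.19 and 9.84 FPKM in c-MYC/FOXO1AAA, with Ccl21a at 3 reads or fewer in every c-MYC library. Reln, which is also in the list for stellate cells, made up most of the sum in FOXO1AAA tumours (4.96, 0.101 and 5.99 FPKM in the 3 groups), while Flt4 (2.46, 0.423 and 0.499 FPKM) and Ccl21a (1.62, 0.177 and 0.279 FPKM) were not called between the tumours. Their part in the Prox1 level was not tested. Prox1os, the antisense gene whose exons overlap Prox1, was 12.4, 3.62 and 1.12 FPKM in the 3 groups and called lower in all 3 comparisons, though not in c-MYC against NL with the same FPKM total (-0.87, limma adjusted p 0.248). Whether reads were counted by strand is not stated, so reads of these neighbours cannot be told apart. The same holds for Cebpa and Gm45091, at 5.67, 1.35 and 1.71 FPKM, and for Cebpb and Tmem189, at 4.69, 5.45 and 13.2 FPKM.

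**Figure D3:**
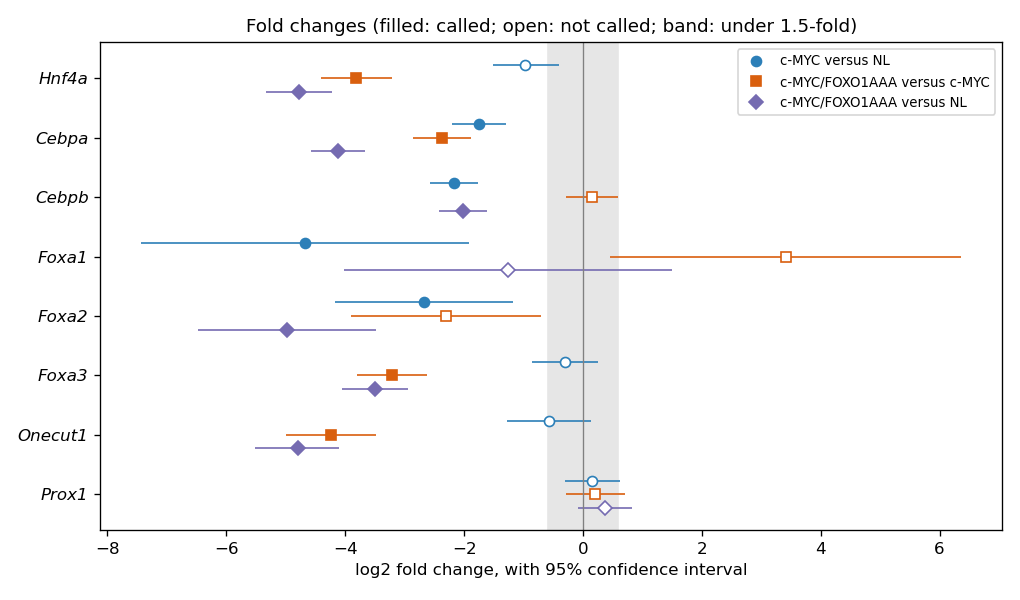
Log2 fold change of each factor in the 3 comparisons, with 95% confidence intervals. Filled symbols were called by limma treat, open symbols were not, and the grey band marks changes under 1.5-fold. On the scale of the study Cebpa was called in all 3 comparisons and Prox1 in none, and Foxa1 had the widest intervals.

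Levels of the factors differed among the c-MYC/FOXO1AAA libraries. In c-MYC/FOXO1AAA 3, 6 of the 8 factors were at their highest among the 3, all but Foxa1 and Prox1. Hnf4a reached 6.08% of its NL mean there, against 2.55% and 3.12% in the other libraries, and Foxa2 reached 8.99%, against 1.68% and 1.9%. Of the 12 adult hepatocyte markers, 8 were also highest in c-MYC/FOXO1AAA 3, and their median was 1.73% of the NL level there, against 0.941% and 1.13%. In c-MYC the median was 2.64%, 4.86% and 3.77%. Gene by gene the markers were split between the tumours, with 6 lower and 4 higher (Cyp2e1, Cyp1a2, Uox and Mup20) in FOXO1AAA tumours. The part of hepatocyte markers in the levels of the factors was not tested. The share of all genes that were highest in c-MYC/FOXO1AAA 3 was not counted, so the counts of 6 and 8 cannot be set against it. Without c-MYC/FOXO1AAA 3, 5 factors were called lower in FOXO1AAA tumours than in c-MYC tumours, with Foxa2 added, and 5 in c-MYC than in NL, with Hnf4a added.

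For each factor the tested genes with the most similar pattern were sought. The measure was the root mean square difference of log2 FPKM over the 10 libraries after each gene's own mean was subtracted. The other factors of the set, Gm and Rik gene models and symbols that start with a digit were left out. Likeness among the factors themselves was thus not ranked. Genes that run in parallel over the libraries have a value near 0. Hlf, a clock output factor of hepatocytes, was closest to Hnf4a (0.185, where the median gene was at 2.24), with 13.6 FPKM in NL, 7.06 FPKM in c-MYC and 0.436 FPKM in c-MYC/FOXO1AAA, followed by Glyctk (0.193) and Galm (0.205), enzymes of sugar metabolism. Xylb, a xylulose kinase, was closest to Cebpa (0.0937, median 1.91), followed by the peroxisomal thiolase Acaa1a (0.172) and Selenbp1 (0.189). Cgrrf1 (0.178), Leng9 (0.197) and Nat9 (0.211) were closest to Cebpb, Kyat1 (0.191), Psen2 (0.192) and Crb3 (0.207) to Foxa3, and Tmem150a (0.315), Glyctk (0.325) and the fibrinogen gene Fga (0.378) to Onecut1. Tfpi2 (0.407), Acox2 (0.479) and Mat1a (0.521) were closest to Foxa2, and Ubr1 (0.0759), Mbtps1 (0.129) and Wrn (0.148) to Prox1, whose median gene was at 0.787. Foxa1 had no close neighbour among the genes searched. Gata6 was nearest at 1.08, before Hspa1b (1.32) and Tnxb (1.32). Gata6, an endoderm factor, shared the split within c-MYC, at 3.12 FPKM in c-MYC 1 and 0.053 and 0.272 FPKM in c-MYC 2 and 3.

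Other transcription factors of the liver network were counted from a list of 20, chosen with earlier results of these data known. In c-MYC 14 were lower than in NL and 0 higher, with a median log2 fold change of -2, and with the same FPKM total 9 were lower and 1 higher. The largest decreases were those of Onecut2, a relative of Onecut1 (-8, limma adjusted p 4.83e-08), the pericentral factor Tbx3 (-6.63), the bile acid repressor Nr0b2 (-6.21) and the xenobiotic receptor Nr1i3 (-4.43). Onecut2 held at most 9 reads and Tbx3 at most 5 in any c-MYC library, so the size of their decreases depends on the prior count. In c-MYC/FOXO1AAA 12 were lower than in c-MYC and 3 higher (Gata6, Onecut2 and Zhx2), with a median of -1.57. Gata6 changed by 4.41 (limma adjusted p 0.0139), Nr5a2 by -3.45 and Gata4 by -2.72. Onecut2 was higher in FOXO1AAA tumours than in c-MYC tumours, where Onecut1 was lower, but its level was 0.134 FPKM there and 7.18 FPKM in NL.

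Of the 4 clock output factors that bind C/EBP-like sites, Dbp (-4.15) and Tef (-2.58) were lower in c-MYC than in NL, and Hlf (-4.07) and Nfil3 (-2.07) were lower in FOXO1AAA tumours than in c-MYC tumours. Against NL, all 4 were lower in c-MYC/FOXO1AAA (3 with the same FPKM total). In c-MYC against NL, the same FPKM total gave 2 lower and 1 higher. Of 12 cofactors and turnover factors tested, 3 were lower and 1 higher in c-MYC than in NL (3 lower and 5 higher with the same FPKM total), and 5 were higher and 2 lower in FOXO1AAA tumours than in c-MYC tumours. Trib1, which targets C/EBPα for degradation with the ligase Cop1, was 29.6, 4.36 and 11.3 FPKM in the 3 groups, and Cop1 was 7.92, 5.89 and 15.2 FPKM. Both were higher in FOXO1AAA tumours than in c-MYC tumours (log2 fold changes 1.38 and 1.36, limma adjusted p 0.00101 and 0.000473). Tle3, a corepressor that binds FOXA proteins, changed by -2.73 and then by 3.95, Ppargc1a, a coactivator of HNF4A, by -5.05 and then by 2.02, and Trib2 by 2.09 between the tumours. Ppargc1a was 2.42, 0.0981 and 0.299 FPKM in the 3 groups (limma adjusted p 0.0472 between the tumours). It held at most 23 reads in any c-MYC library, so the size of its changes depends in part on the prior count. Tle1 changed by -1.56 between the tumours, and Smarca4, a chromatin remodeller, by 1.15 from NL to c-MYC.

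Genes known to be controlled by these factors were next counted. The lists share genes with the adult hepatocyte markers, namely Ttr, Apoa1 and Serpina1c for HNF4A and Alb, Cps1, Uox and Cyp2e1 for C/EBP. Of 18 HNF4A target genes, 15 were lower in c-MYC than in NL (median -4.07). Apoc3 (-8.45), Ces2a (-8.12) and Cyp8b1 (-6.63) were among the largest decreases. In c-MYC/FOXO1AAA 11 were lower than in c-MYC and 2, among them Apoc3, were higher (median -2.14), and all 18 were lower than in NL. The lipoprotein assembly gene Mttp (-3.8), Apom (-3.75) and the clotting factor F7 (-3.37) were among the largest decreases. Mttp was 101 FPKM in NL, 102 FPKM in c-MYC and 8.69 FPKM in c-MYC/FOXO1AAA.

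Of 11 C/EBP target genes, 11 were lower in c-MYC than in NL (median -5.86), led by Pck1 (-10.8), Tat (-9.91), Cyp2e1 (-9.72) and Uox (-9.15). Between the tumours 4 were higher in c-MYC/FOXO1AAA (Pck1, Tat, Uox and Cyp2e1) and 4 lower (Cps1, Gys2, Agxt and Arg1), with a median of -0.28. Pck1, a gluconeogenic enzyme that FOXO1 also controls, was 1420, 0.983 and 8.01 FPKM in the 3 groups (3.27 between the tumours), Uox changed by 2.95, Cyp2e1 by 2.75 and Cps1, the entry enzyme of the urea cycle, by -3.15. Acute phase genes split as well. Of 13, 11 were lower in c-MYC than in NL (median -5.21, 8 lower with the same FPKM total), led by Orm1 (-9.8), Saa1 (-8.06), Hp (-7.48) and Saa2 (-6.58). In c-MYC/FOXO1AAA 7 were higher than in c-MYC and 3 lower (median 2.44). Saa1 (4.3) and Orm1 (4.12) had the largest increases, while the 3 lower genes were the fibrinogen chains, among them Fga (-3.69) and Fgg (-3.56). Of the 7 higher genes, 5 stayed below NL in the test of c-MYC/FOXO1AAA against NL (Hp, Orm1, Orm2, Saa1 and Saa2). With the same FPKM total, 11 of the 13 were lower and 2 higher in that test.

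Of 11 FOXA and ONECUT target genes, 6 of which are also in the lists above, 9 were lower and 1 higher in c-MYC than in NL (median -3.11), and 5 were lower and 2 higher in FOXO1AAA tumours than in c-MYC tumours (median -1.69). Afp, the fetal albumin-like protein, was the gene that was higher, at 73.4 FPKM in NL, 2100 FPKM in c-MYC and 44.9 FPKM in c-MYC/FOXO1AAA (log2 fold changes 5.42 and -6.53, limma adjusted p 0.00153 and 0.00109). Its NL libraries ranged from 11.1 to 169 FPKM. Slc10a2, a bile acid carrier, held 3 reads or fewer in every c-MYC library and was at 16.9 FPKM in NL and 0.356 FPKM in c-MYC/FOXO1AAA. Alb (-5.86) and Cyp7a1 (-5.6), the rate-limiting enzyme of bile acid synthesis, were also among the largest decreases from NL, and Ttr (-3.36) between the tumours.

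**Figure D4:**
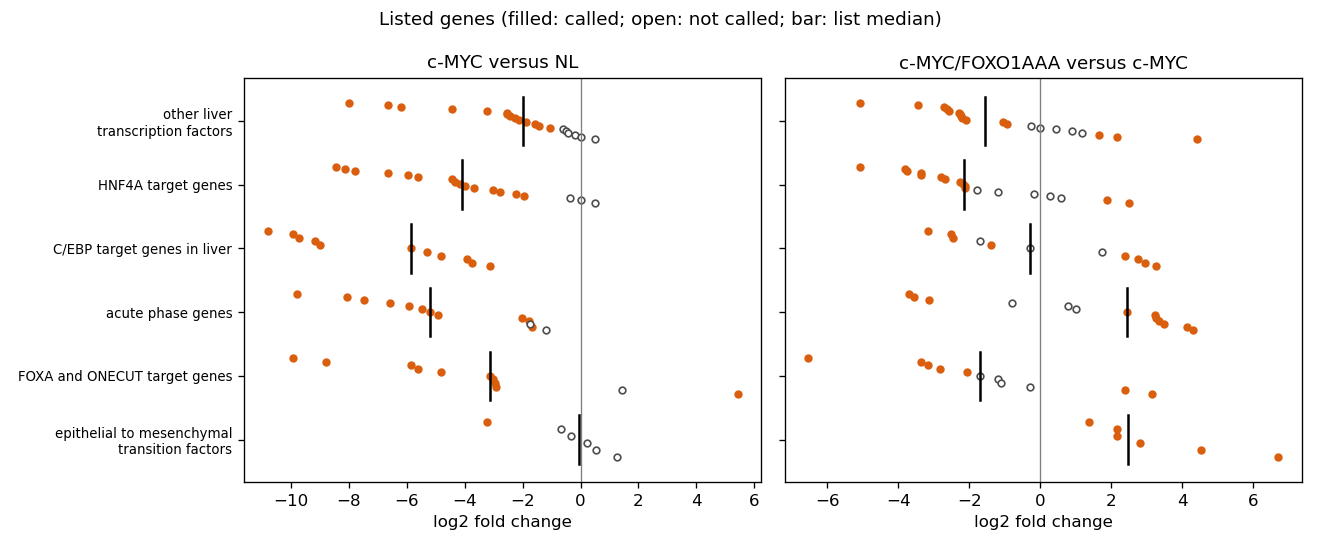
Log2 fold change of each tested gene of 6 lists in c-MYC versus NL (left) and c-MYC/FOXO1AAA versus c-MYC (right). Filled points were called by limma treat, open points were not, and bars are list medians. C/EBP target genes and acute phase genes lay on both sides of 0 between the tumours. Points of genes with few reads in a group, such as Twist1, Slc10a2, Tbx3, Onecut2, Orm2 and Snai2, are fitted values that depend on the prior count.

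Factors of other cell states were also counted. Of the factors of epithelial to mesenchymal transition, 6 were tested. Against NL, 1, Snai2 (-3.21), was lower in c-MYC and 0 were higher (2 with the same FPKM total). In FOXO1AAA tumours 6 were higher than in c-MYC tumours (median 2.49), and 15.9% of all genes were. Twist1, Prrx1 (0.116, 0.266 and 6.21 FPKM in the 3 groups) and Snai1 (0.552, 0.808 and 3.47 FPKM) passed the filter only through the FOXO1AAA tumours. Twist2 (0.0559, 0.0469 and 0.291 FPKM) did not pass it. The count is thus tied to the filter and cannot be set against the share of all genes. Twist1 held 3 reads or fewer in every NL and c-MYC library and 10.5 FPKM in c-MYC/FOXO1AAA. Prrx1 rose by 4.52, Snai2 by 2.81 and Snai1 by 2.16 on the log2 scale. Stellate cells and fibroblasts also express such factors, and 5 of their 8 markers, Col3a1, Dcn, Pdgfrb, Des and Reln, were higher in FOXO1AAA tumours than in c-MYC tumours. The part of these cells was not tested. Of 15 factors of other endoderm lineages, 2 were in the table and 0 passed the filter. Of 6 tested bile duct and progenitor markers, 3 were higher (Krt7, Epcam and Cldn4) and 1 lower in c-MYC than in NL. Between the tumours, 2 were higher (Krt19 and Spp1) and 2 lower, Epcam among them, in FOXO1AAA tumours. Krt7 (0.443, 6.89 and 1.33 FPKM in the 3 groups) and Cldn4 (0.162, 2.3 and 1.28 FPKM) passed the filter only through tumour libraries. Sox9 (0.675, 0.0549 and 0.776 FPKM) did not pass it. The count against NL is thus also tied to the filter.

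Antisense neighbours of the factors were tested for 3 of 8 listed. Hnf4aos, antisense to Hnf4a, was 21 FPKM in NL, 0.472 FPKM in c-MYC and 0.261 FPKM in c-MYC/FOXO1AAA. Its log2 fold change from NL to c-MYC was -5.54 (limma adjusted p 2.37e-07). It held at most 5 reads in any c-MYC library and 2 in any c-MYC/FOXO1AAA library, so this size depends on the prior count. Hnf4a changed by -0.97 there (95% interval -1.52 to -0.41) and was not called. Its groups did not overlap, which held for 73.9% of all genes tested in that comparison. 9030622O22Rik changed by -5.58 and Prox1os by -1.8, and Prox1os by a further -1.77 between the tumours. Of the other cell types, 5 of 8 endothelial markers were lower in c-MYC than in NL (3 lower and 2 higher with the same FPKM total), and 1, Cdh5, was higher in FOXO1AAA tumours than in c-MYC tumours. Among 8 macrophage markers, 3 were lower and 1 higher in c-MYC than in NL (2 lower and 4 higher with the same FPKM total), and 2 were lower and 1 higher in FOXO1AAA tumours than in c-MYC tumours. Of 5 neutrophil and lymphocyte markers, 0 were called in c-MYC against NL by limma treat, and 1, Cd79a, was higher in FOXO1AAA tumours than in c-MYC tumours. Cd79a (0.374, 0.217 and 9.52 FPKM in the 3 groups) passed the filter only through the FOXO1AAA tumours. The part of these cell types in the levels of the 8 factors was not tested.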

How the data were processed

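Total RNA of 10 liver samples was sequenced by the authors (NL, n = 4, c-MYC, n = 3, c-MYC/FOXO1AAA, n = 3), and samples were grouped by their titles. The deposited table holds log2 FPKM per gene. According to the labels and methods, the submitters' notes name the build GRCm38 and FastQC 0.11.7, the authors counted reads by Ensembl gene, added symbols and tested counts with a fold threshold. The aligner, the counting tool and strand setting are not given in the sources used here. The deposited log2 values include a prior count of 2 scaled to the library, which understates changes of low genes. With it removed, whole reads (within 0.001) were recovered for 99.9% of genes, and these gave 13123719 to 20547746 reads in genes per library and the reads quoted. The scaling factors between libraries that the values carry were 0.649 to 0.684 for NL, 1.256 to 1.295 for c-MYC and 1.454 to 1.502 for c-MYC/FOXO1AAA, and the alternative with the same FPKM total undoes them. Of 17069 entries, 372 without symbol or value were left out.

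Because the unit is log2 and not counts, limma 3.58.1 (R 4.3.3) was used on the deposited values. Genes with at least 1 FPKM in at least 3 libraries were kept (14017). A mean per group was fitted over all 10 libraries with trend and robust estimation, and treat tested for a change above 1.5-fold, with Benjamini-Hochberg adjustment over all genes. Ratios and shares were compared with exact 2-sided permutation tests (scipy 1.17.1). The fit was tested on simulated data. The 23 alternatives were pseudocounts of 0.1 or 1, no filter or a mean of 5 FPKM, the same total, median or quantiles, no threshold or a 2-fold threshold, no trend or robust estimation, the groups of a contrast alone, a replicate block, limma voom on the recovered reads, and each of the 10 libraries left out. Ratios and shares were also taken from recovered reads with no prior count.

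The 8 members and all gene lists were chosen with earlier results of these data known, so none of the counts is independent support. Named genes are the 8 members, up to 4 genes per list with the largest absolute log2 fold change among those called in c-MYC versus NL and up to 4 between the tumour groups, and the 3 nearest genes of each member by root mean square difference. Other members, Gm and Rik gene models and symbols that start with a digit were not eligible as nearest genes. Some genes that this rule names are not reported here. Cofactors, relatives and genes named to complete a count were chosen after their values were seen. Gene positions are from GENCODE release M21 (GRCm38). Intervals on reads cover counting error only.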

Additional observations from a re-analysis of the deposited data

Results flagged for a closer look

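Of 12 measures of the 4 NL libraries (the 8 factors, the Cebpb to Cebpa ratio and the 3 Foxa shares), 1 had a library that stood apart by Dixon's test. The log2 ratio of Cebpb to Cebpa was -0.305 in NL 3, and its distance to the next library was 0.962 of the range of the group, above the critical value for 4 samples. Chance alone flags about 1 in 20 such groups. NL 3 also had the highest Cebpb of the group, at 345 FPKM, and the highest Hnf4a, Foxa1, Foxa2, Foxa3 and Onecut1. Its Cebpa, at 426 FPKM, and its Prox1, at 11.6 FPKM, were not the highest. The median of the adult hepatocyte markers in NL 3 was 98.6% of the NL level.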

How the results depend on the processing

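Of 549 values of the fold changes of the 8 factors under alternatives, 527 kept their direction and side of the threshold, 5 lost the call, 12 gained it and 5 changed sign. The 5 were not called in either form, and they were Foxa3 (0.63) and Onecut1 (0.36) in c-MYC versus NL with the same FPKM total, Prox1 there without c-MYC 2 (-0.05, up to 0.38 with other single libraries left out), and between the tumour groups Cebpb without c-MYC 2 (-0.02, up to 0.3) and Prox1 without c-MYC 3 (-0.01, up to 0.42). Of 138 counts of called factors, 4 moved by over 1.5 times. With the same FPKM total, 2 factors were lower and 1 higher in c-MYC than in NL (1895 and 7061 of 14017 genes tested), and 5 were lower and 1 higher in c-MYC/FOXO1AAA than in NL (2099 and 8129 genes). With single libraries left out, the number higher in FOXO1AAA tumours than in c-MYC tumours ranged from 0 to 1. The Foxa2 share of the Foxa sum between the tumours, -3.84 percentage points, became 0.477 with a pseudocount of 1 and ranged from -9.52 to 2.29 with single libraries left out. The cause was not tested.

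Replicate numbers did not pair the libraries, since correlations of deviations between libraries of the same number lay between -0.0398 and 0.0272. With a replicate block, 5 factors were lower in FOXO1AAA tumours than in c-MYC tumours in place of 4, with Foxa2 added (-2.31, limma adjusted p 0.0466), and no other call among the 8 factors changed. With limma voom on recovered reads every call among the 8 factors was the same. Onecut1 has no value under the filter of a mean of 5 FPKM. Depth limits Foxa1 in c-MYC 2 and 3, with 1 and 11 reads. The exact tests of ratios and shares cannot pass 0.05 in this design.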
